A study of Mus musculus with 45 samples.

Results

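The genes of the cytosolic ribosome were examined as a group in red cell precursors that had or lacked Stag2. The members were 85 of the 24333 genes of the deposited gene score table. They were chosen by name alone, as the Rpl and Rps genes (53 of the large and 32 of the small subunit, with their named paralogues) together with Rpsa, Rplp0, Rplp1 and Rplp2. The naming rule itself uses no measured value. A gene score is a signal that adds up the single-nucleus ATAC fragments (pieces of open chromatin) lying in and around a gene, so it measures accessibility and not RNA.

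The libraries came from Ter119+ erythroblasts, red cell precursors sorted for the surface protein Ter119, of Stag2 WT and Stag2 KO mice. All mice, WT included, had received pIpC 6 to 8 weeks earlier, an RNA mimic that induces interferon. There were 3 WT and 3 KO libraries out of 45 samples in the series, and the RNA libraries of the same nuclei were not analysed here. The Stag2 protein belongs to cohesin, a ring that holds DNA strands and shapes chromatin loops. The labels used here do not name the driver of the recombinase or say how complete the deletion was, nor whether a library held 1 animal or a pool, so the p-values measure the spread between these libraries.

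The cytosolic ribosome translates messenger RNA in a small subunit that reads the code and a large subunit that joins the amino acids. Its proteins are encoded by single genes scattered over the chromosomes and are made in near equal amounts, and many of their transcripts begin with a pyrimidine tract that ties translation to growth signals. Red cell precursors make haemoglobin at a high rate while they stop making ribosomes, and loss of 1 copy of several ribosomal protein genes causes Diamond-Blackfan anaemia in people. The members lay on 19 chromosomes, 4 of them on the X (Rpl10, Rps4x, Rpl39 and Rpl36a), and were short, with a median length of 3068 bases against 14728 for all genes. For 26 of the 85 another gene started within 1 kb.

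The start regions of 14 members are shown because the results below turn on these genes. The first 5 were higher in KO libraries, the next 5 were lower there, and the last 4 were among those with the largest changes between classes of nuclei. Each sequence runs from 50 bases before the RefSeq start to 15 bases from it on GRCm38.p6 (mm10), 5′ to 3′ along the gene's own strand. Capitals mark a run that opens with C, goes on with at least 4 further C or T, and begins within 5 bases of the start. Such a run was found in 29 of the 64 members with an entry in the RefSeq promoter table (45.3%) and in 3404 of 17880 genes of the deposited table with an entry (19.0%). The RefSeq start differed from the deposited start by 37, 22 and -3 bases for Rpl38, Rpl11 and Rps24, and was the same for the other genes shown.
Rpl22 (chr4:152324386-152324450, plus strand): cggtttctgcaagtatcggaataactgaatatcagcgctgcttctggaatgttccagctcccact
Rpl38 (chr11:114668530-114668594, plus strand): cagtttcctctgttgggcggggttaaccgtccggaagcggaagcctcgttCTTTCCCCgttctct
Rps21 (chr2:180257329-180257393, plus strand): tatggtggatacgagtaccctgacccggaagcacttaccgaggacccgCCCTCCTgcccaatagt
Rps24 (chr14:24490628-24490692, plus strand): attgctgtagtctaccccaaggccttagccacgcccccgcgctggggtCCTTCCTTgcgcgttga
Rpl11 (chr4:136053379-136053443, minus strand): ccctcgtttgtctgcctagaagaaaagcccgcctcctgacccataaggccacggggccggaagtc
Rps13 (chr7:116334176-116334240, minus strand): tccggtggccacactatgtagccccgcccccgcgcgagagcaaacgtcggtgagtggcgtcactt
Rps3 (chr7:99483695-99483759, minus strand): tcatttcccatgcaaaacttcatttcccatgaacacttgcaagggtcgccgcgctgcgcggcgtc
Rps26 (chr10:128626492-128626556, minus strand): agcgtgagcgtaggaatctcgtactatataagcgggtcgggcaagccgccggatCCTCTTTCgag
Rpl35 (chr2:39005117-39005181, minus strand): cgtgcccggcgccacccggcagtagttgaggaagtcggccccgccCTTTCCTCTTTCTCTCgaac
Rpl36al (chr12:69184053-69184117, minus strand): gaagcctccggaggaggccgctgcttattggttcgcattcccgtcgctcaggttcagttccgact
Rpl34 (chr3:130730384-130730448, minus strand): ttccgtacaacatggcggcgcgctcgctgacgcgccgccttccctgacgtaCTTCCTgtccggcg
Rps12 (chr10:23787195-23787259, minus strand): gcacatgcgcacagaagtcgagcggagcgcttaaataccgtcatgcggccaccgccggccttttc
Rpl10l (chr12:66284387-66284451, minus strand): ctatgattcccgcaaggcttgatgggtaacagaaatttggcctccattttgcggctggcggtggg
Rps4x (chrX:102189377-102189441, minus strand): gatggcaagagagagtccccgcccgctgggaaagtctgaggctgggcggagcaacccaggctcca

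The same 64 promoters were searched on both strands from 250 bases before to 50 bases after the start. The ETS motif CCGGAAG, which can be read in Rps21, Rpl38 and Rpl11 above, was in 24 of 64 members (37.5%) and in 12.1% of all 17880 promoters. AANATGG, the letters bound by YY1, was in 32.8% of members and 15.6% of promoters. The GC box GGGCGG was in 59.4% and 47.0%, the KLF1-type box CCNCNCCC, which can overlap it, in 60.9% and 56.9%, and the GATA motif AGATAA in 6.25% and 9.66%. These matches describe letters and were not tested. Among the 21 members without an entry were Rpl3, Rpl7, Rpl32, Rplp1, Rps14, Rps20, Rps29 and Rps4l.

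The 6 libraries held 4617 to 6990 nuclei and 46782673 to 66286151 fragments, and 725 nucleus barcodes occurred in more than 1 library. The score of Stag2 itself was 64.2, 65.7 and 65.9 in WT and 61.0, 65.1 and 62.4 in KO libraries, a log2 difference of -0.054 with an SE of 0.0468 (limma adjusted p = 0.348). A score over the whole gene does not show a deleted exon. The summed score of 11 erythroid marker genes was 2369 to 2598 in WT and 2052 to 2270.1 in KO. The summed scores of T cell, B cell, granulocyte, monocyte, megakaryocyte and stem cell markers were each higher in every KO than in every WT library (granulocyte 43.2 to 46.4 and 55.2 to 59.2, T cell 10.6 to 12.2 and 13.3 to 16.2), and no marker was at 0. Genes of low score were in general higher in KO. The median log2 difference was 0.26 for genes around a score of 5.34 and 0.27 around 16.95. Whether these marker sums went beyond that was not tested. By library, the median nucleus had 62.2% to 64.7% in WT and 57.4% to 59.9% in KO libraries of its fragment ends in peaks. A class mean cannot tell a shift in the mix of nuclei from a shift within each nucleus. The part of these differences in the results below was not tested. WT and KO nuclei fell into nearly separate clusters. Cluster C5, of Int nuclei and with 73.0% KO nuclei, was the mixed cluster with the most nuclei.

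Most ribosomal protein genes were more accessible in the erythroblast nuclei that the authors classed as Late than in those classed as Int. In WT libraries 61 of 83 tested members were higher and 7 were lower in Late nuclei (limma on the within-library difference, adjusted p under 0.05), which is 73.5% and 8.43% of them. Of all 17747 genes tested 27.4% were higher and 48.6% lower, and of 2850 other genes with a mean score between the quartiles of the members 58.6% were higher and 21% lower. Calls in either direction made up 81.9% of the members, 76% of all genes and 79.6% of the genes of like score. The median log2 fold change of the members was 0.25, against -0.15 for all genes and 0.14 for the genes of like score. In KO libraries 56 members were higher and 12 lower, where all genes had 25.9% and 47.5% (73.4% in either direction) and those of like score 55.9% and 23.1% (79%), and the members' median was 0.20 against -0.15 and 0.12. The members' median stayed above 0 under each scaling tried, from 0.13 to 0.46 in WT and from 0.11 to 0.39 in KO, although the WT counts went to 47 higher and 13 lower with quantile normalization and to 45 and 16 with cyclic loess. All genes then had 6849 higher and 5677 lower (70.6% called) and 6393 and 6218 (71.1%), so that the members' median lay above that of all genes by 0.097 and 0.12 instead of 0.40.

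Late nuclei differed from Int nuclei in depth and quality as well. The median nucleus had 10121 to 12877 fragments in WT and 13911 to 14998 in KO libraries in the Int class, and 5693 to 6812 and 6043 to 6503.5 in the Late class, so that every KO library was deeper than every WT library in Int nuclei. It had 55.1% to 61.9% in Int and 60.3% to 66.4% in Late nuclei of its fragment ends in peaks. In nuclei with 5000 to 15000 fragments 61 members were higher and 7 lower in WT and 58 and 7 in KO, with a median of 0.20 in both. Of all genes in this window 5136 were higher and 6618 lower in WT (68.1% called) and 4996 and 5974 in KO (63.5%). Rpl39l and Rps25 were below the filter (a mean score of 5) in this comparison.

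**Figure D1:**
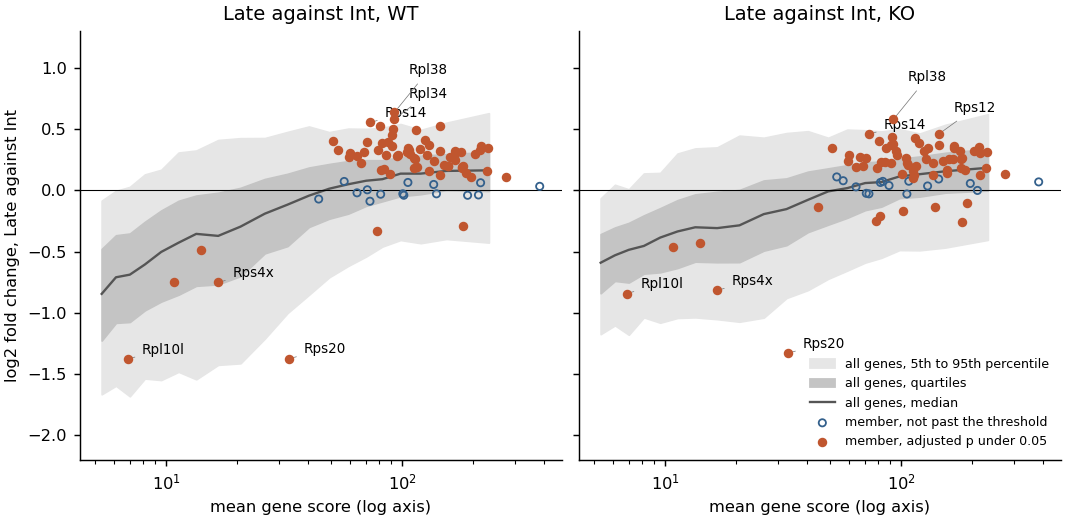
Log2 fold change between Late and Int nuclei (vertical axis) against the mean gene score (horizontal log axis) in WT and KO libraries. Points are the 83 tested members, filled where the adjusted p was under 0.05, and grey bands show all 17747 genes in 20 bins of equal size. Most members lie above the median line of all genes, and Rps20 lies far below it in both panels.

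Among the large subunit genes 40 of 52 were higher in Late nuclei of WT and 4 were lower, with a median of 0.26, where 27.4% of all genes were higher and 48.6% lower and 58.6% and 21% of those of like score. The highest of all members was Rpl38, whose protein helps to select messages of body-plan genes. Its score was 71.6, 60.8 and 70.3 in Int and 107, 105 and 104 in Late nuclei of WT libraries, and 85.3, 77.5 and 74.9 and 121, 119 and 117 in KO libraries. Within each genotype every Late value lay above every Int value, with a rise of 0.64 (SE 0.0433, limma adjusted p = 1.52e-11) in WT and 0.58 (SE 0.0433, limma adjusted p = 9.81e-11) in KO on the log2 scale. Rpl34, a protein of the large subunit surface, went from 73.2, 73.8 and 66.4 to 112, 109 and 99.5 in WT, a change of 0.58 (SE 0.0364, limma adjusted p = 4.21e-12), and from 84.8, 82.6 and 81.8 to 108, 109 and 108 in KO, a change of 0.38 (SE 0.0364, limma adjusted p = 5.75e-09). The 3 stalk proteins, which recruit elongation factors to the ribosome, were also higher in Late nuclei. Rplp0 changed by 0.32 in WT and 0.36 in KO, Rplp1 by 0.26 and 0.12 and Rplp2 by 0.20 and 0.14 on the log2 scale. The KO call of Rplp1 was lost without KO replicate 2 (0.080) or KO replicate 3 (0.10). Rpl5 and Rpl11, which hold free Mdm2 when ribosome assembly fails, changed by 0.34 and 0.17 in WT and by 0.22 and 0.074 in KO, the last not past the threshold (adjusted p = 0.0886).

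Among the small subunit genes 21 of 31 were higher in Late nuclei of WT and 3 were lower, with a median of 0.19. Called in either direction were 77.4% of them, against 76% of all genes and 79.6% of those of like score. Rps14, whose human counterpart is lost in the anaemia of the 5q deletion, had scores of 59.7, 57.1 and 58.6 in Int and 87.8, 85.7 and 85.6 in Late nuclei of WT. The groups lay apart, with a change of 0.55 (SE 0.0398, limma adjusted p = 3.58e-11), and in KO it was 0.46 (SE 0.0398, limma adjusted p = 1.03e-09). Rps12 rose from 116, 121 and 119 to 165, 174 and 176 in WT, by 0.53 (SE 0.0331, limma adjusted p = 4.07e-12), and by 0.46 (SE 0.0331, limma adjusted p = 5.4e-11) in KO. Rps7 rose by 0.52 and 0.40 and Rps24 by 0.46 and 0.37. Rps19, the gene most often mutated in Diamond-Blackfan anaemia, was at 194, 193 and 219 in Int and 204, 210.4 and 217 in Late nuclei of WT. Its change of 0.063 was not past the threshold (adjusted p = 0.0905) and turned to -0.086 (quantile normalization) and -0.096 (cyclic loess), both past it. In KO it was 0.13 (adjusted p = 0.00145) and turned to -0.035 and -0.042, neither past it.

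A small set of members went the other way, and some of them had low scores. Genes of low score were in general lower in Late nuclei. Rps20, a protein of the small subunit head, had scores of 43.9, 49.4 and 38.6 in Int and only 16.4, 15.4 and 16.98 in Late nuclei of WT, and of 56.2, 51.6 and 48.8 and 20.4, 20.8 and 19.3 in KO. On the log2 scale this was -1.37 (SE 0.0768, limma adjusted p = 6.1e-13) in WT and -1.33 (SE 0.0768, limma adjusted p = 1.5e-12) in KO, and its sole tested neighbour within 100 kb, Mos, was lower as well (-0.70 in WT). In the small Early class its score was 89.6 and 89.4 in WT replicates 1 and 2 and 87.9 in KO replicate 1, above every Int value. Genes near the score of Rps20, around 32.7, had a median of -0.12 and a lower quartile of -0.45 in WT, and Rps20 lay far below them. Rps4x, the X-linked copy of a small subunit gene, fell by 0.75 in WT (adjusted p = 1.62e-07) and by 0.82 in KO (adjusted p = 6.48e-08). Genes around its score, at 16.6, had medians of -0.37 in WT and -0.31 in KO and lower quartiles of -0.77 and -0.59. Rps4x thus lay within the quartiles of its level in WT and below the lower quartile in KO. Rpl10 fell by 0.33 and 0.25, and Rpl3, which shapes the peptidyl transferase centre, by 0.29 and 0.26. Under median centring Rpl3 was no longer called in either genotype (-0.087 and -0.067), nor Rpl10 in KO (-0.056). The named copies Rpl10l, Rps4l and Rpl32l were the 3 tested members with the lowest scores. Their changes were -1.38, -0.75 and -0.49 in WT and -0.84, -0.46 and -0.43 in KO. Genes around 7.01, 11.3 and 13.4 had WT medians of -0.69, -0.43 and -0.35 and lower quartiles of -1.07, -0.85 and -0.78. In WT, Rps4l and Rpl32l thus lay within the quartiles of genes near their score, and Rpl10l lay below the lower quartile. Ribosomal protein genes have many near-identical copies in the genome, and how fragments that match several places were counted is not given in the sources used here, so the values of these copies are uncertain.

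The WT and KO comparisons of Late with Int nuclei share no library. They were fitted together, with a variance per gene shared by both genotypes, so their calls are not independent tests. The change had the same sign in both for 79 of 83 members, with 53 called higher in both, 7 called lower in both and 0 called in opposite directions. Over all genes the sign was the same for 91.7%. Of the members higher in WT 86.9% were also higher in KO, and 94.6% the other way round. How often all genes were called in both genotypes was not counted, so these overlaps have no background here. Across members, which are not independent replicates, Pearson's r was 0.955. Called lower in KO alone were Rpl29, Rpl36a, Rpl39, Rps16 and Rps26, whose WT log2 differences were -0.039, -0.070, -0.031, -0.028 and -0.039. For none of them was the change called different between WT and KO. Median centring turned Rpl29 to 0.026, Rpl36a to 0.056, Rps16 to 0.055 and Rps26 to 0.089 in KO and left Rpl39 at -0.017. The KO call of Rpl36a was also lost without KO replicate 1 (-0.12) or KO replicate 2 (-0.11), and that of Rps26 without KO replicate 2 (-0.078) or KO replicate 3 (-0.092).

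**Figure D2:**
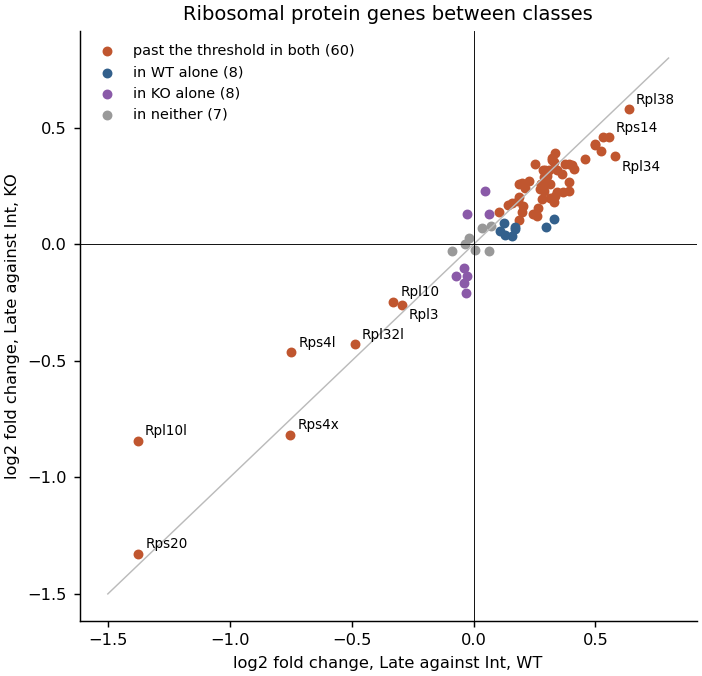
Log2 fold change of each of the 83 tested members between Late and Int nuclei in WT (horizontal axis) and KO libraries (vertical axis), coloured by where the adjusted p was under 0.05. The grey line marks equal changes, and the lone points at lower left are Rps20, Rpl10l, Rps4x and Rps4l.

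Added over the 85 genes, the score was 9136, 9187 and 9454 of 1000000 in Int nuclei of WT replicates 1, 2 and 3 and 9556, 9390.4 and 9238 in KO. In Late nuclei it was 10529, 10732 and 10720.4 in WT and 10804, 10582 and 10547 in KO. Each library was higher in Late than in Int nuclei, and the genotypes overlapped within each class. Only 3 libraries had at least 50 Early nuclei, and there the sum was 9322 and 9107 in WT replicates 1 and 2 and 8812 in KO replicate 1. Between Early and Int nuclei the members' median log2 change was -0.10, -0.041 and 0.058 in these libraries, against -0.17, -0.19 and -0.18 for all genes, with 36 of 84, 39 of 84 and 47 of 85 members higher in Int.

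**Figure D3:**
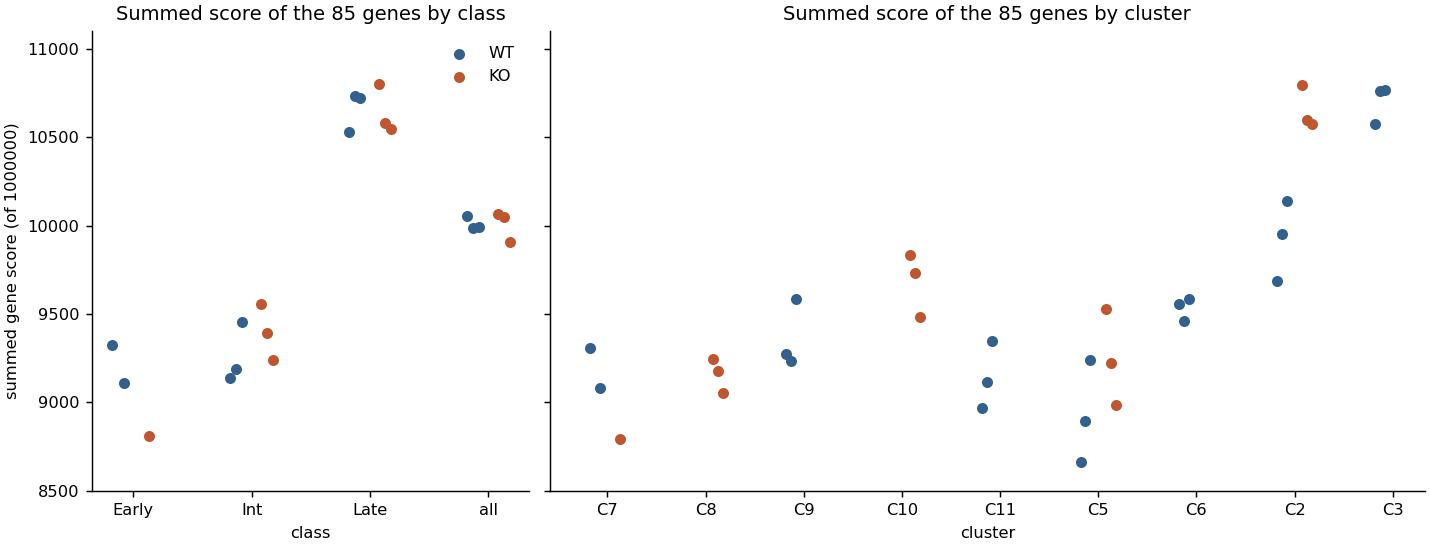
Summed gene score of the 85 members (vertical axis, out of 1000000, not starting at 0) by class and by cluster, 1 point for each library with at least 50 nuclei. Late nuclei and the clusters that hold them (C2 and C3) lie highest, apart from the 3 WT points of C2, which rest on 58 to 68 nuclei each.

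With libraries scaled to the same sum, the ribosomal protein genes differed little between KO and WT libraries as a group. Several single genes differed in both directions, and the balance of directions followed the scaling, as given below. In all nuclei 12 of 83 tested members were higher in KO and 9 were lower (limma, adjusted p under 0.05), together 25.3% of them. Of all 17682 genes 43.3% were called, 29.1% higher and 14.2% lower, and of 2856 other genes of like score 44%, 9.52% higher and 34.5% lower. The median log2 fold change of the members was 0.0079, against 0.096 for all genes and -0.074 for the genes of like score. Rps25 and Rpl39l were below the filter. In Int nuclei 14 of 84 members were higher and 4 lower (21.4%). All genes had 12.7% higher and 7.1% lower (19.8%) and those of like score 8.41% and 19.4% (27.8%), and the medians were 0.029, 0.057 and -0.063. In Late nuclei 14 of 82 were higher and 11 lower (30.5%). All genes had 32.9% and 18.5% (51.4%) and those of like score 10.3% and 34.1% (44.4%), and the medians were -0.0024, 0.052 and -0.068. The 3 comparisons share libraries, and all nuclei include both classes.

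The direction of the group as a whole followed the scaling, from a median of -0.14 in all nuclei under median centring, which moved the median of all genes by -0.15, to 0.050 with quantile normalization and 0.054 with cyclic loess. Calls under these scalings were 1 higher and 24 lower, 19 and 2, and 23 and 1 in all nuclei, 1 and 10, 20 and 0, and 23 and 0 in Int, and 4 and 21, 20 and 4, and 22 and 4 in Late nuclei. Over all genes they were 3018 higher and 5508 lower (48.2% called), 2549 and 2890 (30.8%), and 2829 and 2411 (29.6%) in all nuclei, 28.5%, 21.1% and 20% were called in Int, and 54.1%, 37.8% and 37.3% in Late nuclei. Set against the genes of like score, the members' median was higher by 0.082 as computed and by 0.082, 0.067 and 0.062 under the same 3 scalings.

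**Figure D4:**
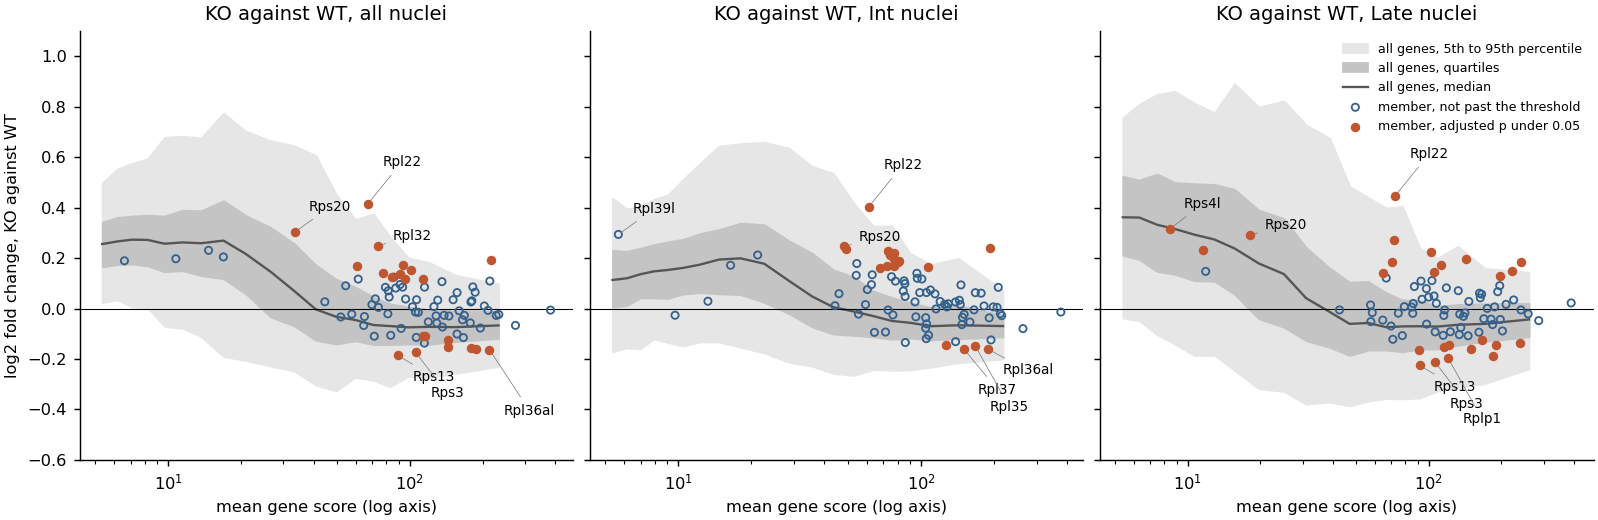
Log2 fold change of KO against WT (vertical axis) against the mean gene score (horizontal log axis) in all, Int and Late nuclei. Points are the tested members, filled where the adjusted p was under 0.05, over grey bands of all genes in 20 bins of equal size. The median of all genes falls from above 0 at low scores to below 0 at the scores of most members, and Rpl22 stands above the band of genes of its level.

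Rpl22 (chr4:152324436-152334082, plus strand), a large subunit protein that also binds RNA outside the ribosome, had the highest change of all members. Its score was 57.9, 55.98 and 58.1 in WT and 77.1, 75.8 and 77.6 in KO libraries over all nuclei, with every KO value above every WT value. This was a rise of 0.42 (SE 0.0451, limma adjusted p = 1.86e-06) on the log2 scale. In Int nuclei the values were 52.2, 52.2 and 52.3 and 70.3, 69.5 and 68.6, a change of 0.40 (SE 0.0534, limma adjusted p = 2.6e-06), and in Late nuclei 60.4, 57.9 and 65.8 and 84.8, 80.95 and 86.3, a change of 0.45 (SE 0.0549, limma adjusted p = 2.26e-05). The call held in 17 of 17 alternatives in all nuclei, 17 of 18 in Int and 17 of 17 in Late. The exception was cluster C5 alone, where Rpl22 stood at 67.2, 79.96 and 66.1 in WT and 68.3, 64.2 and 63.9 in KO (-0.11, limma adjusted p = 0.783). In the WT clusters C6 and C11 it was 43.8 to 49.4 and in C9 58.1 to 65.5, while in the KO clusters C8 and C10 it was 69.1 to 73.0. Cluster C7, mostly Early nuclei and 50.4% KO, was mixed as well. There Rpl22 was at 73.6 and 71.2 in WT replicates 1 and 2 and at 72.4 in KO replicate 1. Its 5 tested neighbours within 100 kb were all called higher in Late nuclei, and Gpr153 changed more than Rpl22 itself (0.82 in Late nuclei). The paralogue Rpl22l1 was at 122, 121 and 121 and 115, 121 and 115, a log2 difference of -0.053 (limma adjusted p = 0.291).

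Called higher in KO in both Int and Late nuclei were Rpl22, Rpl32, Rpl38, Rps20 and Rps21, 5 of 14 in either class. The share of all genes called in both classes was not counted. Rpl32 was at 68.96, 70.99 and 62.7 in WT and 82.9, 77.5 and 80.9 in KO, a change of 0.25 (SE 0.0513, limma adjusted p = 0.00109), with the groups apart. Its neighbour Tmem40 changed by 1.01. Rps21, which joins the small subunit late in its assembly, was at 202, 205 and 198 and 233, 231 and 228, a change of 0.19 (SE 0.0422, limma adjusted p = 0.00178), with values of 128.6 to 185.8 in WT and 198 to 234 in KO within C5. Within C7 Rps21 was at 166.3 and 159.0 in WT replicates 1 and 2 and at 155.6 in KO replicate 1. Rpl38 was at 95.2, 85.04 and 84.9 and 102, 100.2 and 96.4, a change of 0.17 (SE 0.0490, limma adjusted p = 0.0101), with every KO value above every WT value. Rps20 was at 26.5, 33.4 and 29.5 and 42.2, 34.9 and 33.9, a change of 0.30 (SE 0.0902, limma adjusted p = 0.0133), and Mos beside it changed by 0.60. Its KO values lay above the WT values in all and in Late nuclei and overlapped them in Int. In Late nuclei it scored 18.2 and changed by 0.29, where genes around 19.8 had a median of 0.18 and an upper quartile of 0.39. Rps20 kept its call in 10 of 17 alternatives and lost it without WT replicate 1 (0.22) or KO replicate 1 (0.21). In Int nuclei the call of Rps20 ended on leaving out WT replicate 1 (0.25), KO replicate 1 (0.19) or WT replicate 3 (0.16), that of Rpl32 without WT replicate 3 (0.13) and that of Rpl38 without WT replicate 2 (0.15) or KO replicate 1 (0.17). In C5 alone none of the 5 was called, and under median centring Rpl22 alone kept the call in all and in Int nuclei.

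**Figure D5:**
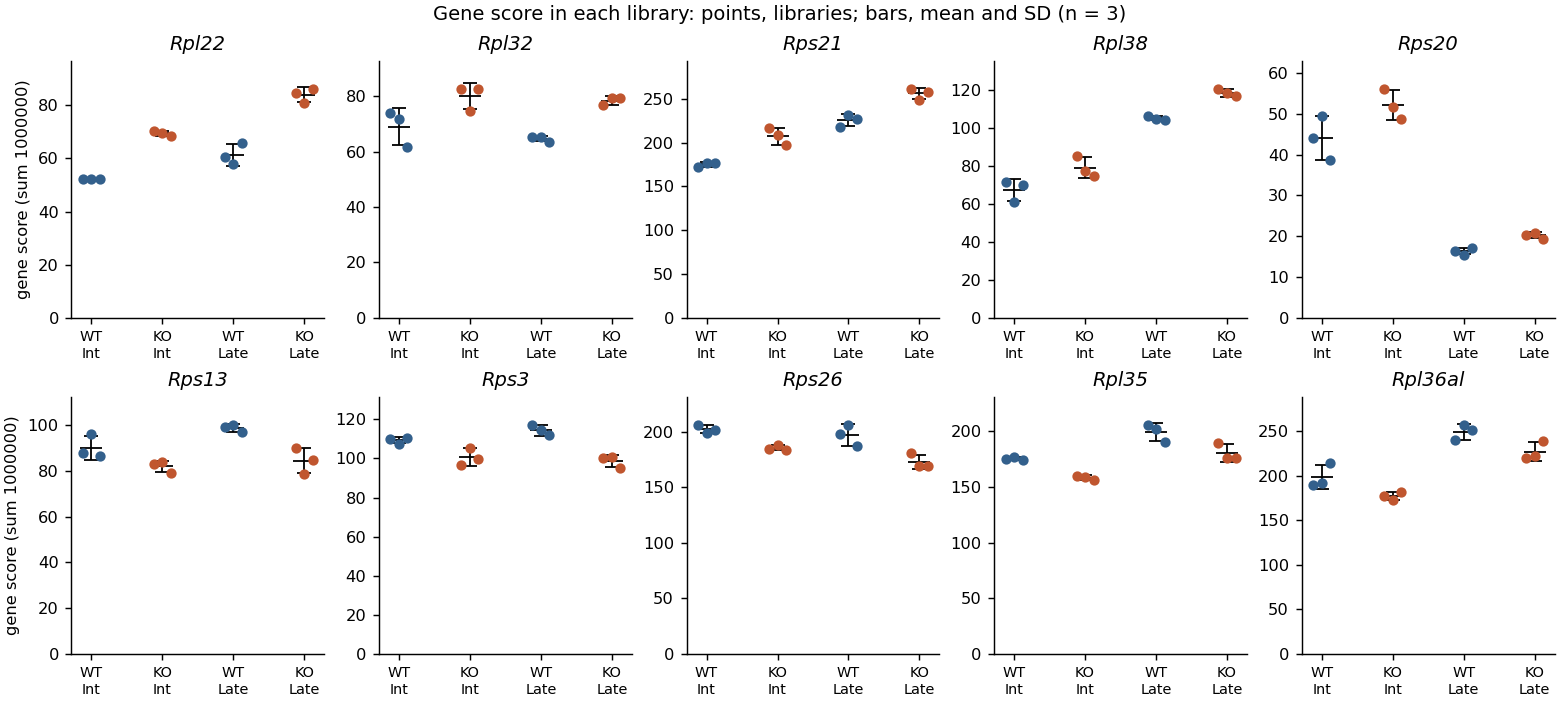
Gene score (vertical axis, libraries scaled to 1000000) of 10 members in Int and Late nuclei of each WT and KO library, with the mean and SD of 3 libraries. The upper row holds members called higher in KO in both classes, and the lower row members that were lower in KO, where the KO points lie below the WT points in each class.

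Higher in Int nuclei but not called in Late were 9 members, among them Rps24, Rpl11 and Rps7, which are mutated in Diamond-Blackfan anaemia. Rps24 was at 70.2, 75.2 and 70.5 in WT and 82.9, 82.9 and 82.3 in KO, a change of 0.20 (SE 0.0503, limma adjusted p = 0.00524), and in Late nuclei the log2 difference was 0.11 (adjusted p = 0.0688). Rpl11 was at 75.4, 75.4 and 73.8 and 87.2, 86.2 and 82.5, a change of 0.19 (SE 0.0493, limma adjusted p = 0.00777), and the difference was 0.087 in Late nuclei (adjusted p = 0.175). In C5 alone the differences were 0.41 and 0.31, neither past the threshold. In nuclei with 5000 to 15000 fragments the calls in Int nuclei of Rps24 (0.17), Rpl11 (0.11), Rps7 (0.15), Rpl34 (0.15) and Rpl32 (0.17) were lost. In the Int class the median nucleus of every KO library had more fragments than that of every WT library, and the part of depth in these calls was not tested further. Rps7 changed by 0.16 (adjusted p = 0.0402), which median centring turned to -0.016, and lost its call without WT replicate 1 (0.17), WT replicate 3 (0.14), KO replicate 1 (0.12) or KO replicate 2 (0.15). Rpl34 was at 73.2, 73.8 and 66.4 and 84.8, 82.6 and 81.8, a change of 0.22 (SE 0.0527, limma adjusted p = 0.00303), and in Late nuclei at 112, 109 and 99.5 and 108, 109 and 108 (0.020, adjusted p = 0.740). Called higher in Late nuclei alone were 9 members, among them Rps19 at 204, 210.4 and 217 and 225, 242 and 234, a change of 0.15 (SE 0.0408, limma adjusted p = 0.00752). Rpl10, an X-linked protein added at the last step of large subunit assembly, was at 63.4, 65.8 and 67.6 and 75.5, 76.7 and 71.6, a change of 0.18 (SE 0.0497, limma adjusted p = 0.00763). For Rps24, Rpl11, Rps7, Rps19 and Rpl10 the KO effect was not called different between Late and Int nuclei. Of the 9 members called higher in Int alone it was called different for Rpl34 only. Under median centring 4 members in all were called higher in Late nuclei.

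Lower in KO in both classes were Rpl35 and Rpl36al, 2 of 4 in Int and 2 of 11 in Late nuclei, again without a count over all genes. Rpl35, which lies at the exit of the peptide tunnel, was at 195, 189 and 181 in WT and 172, 168 and 166 in KO, a change of -0.16 (SE 0.0432, limma adjusted p = 0.00849). Rpl36al, the autosomal copy of the X-linked Rpl36a, was at 222, 224 and 230.0 and 193, 199.9 and 211, a change of -0.16 (SE 0.0457, limma adjusted p = 0.00965). In C5 alone it was 0.086 (limma adjusted p = 0.758), and it shares its start region with Mgat2, 91 bases away. Neither kept its call under quantile normalization (-0.091 and -0.087) or cyclic loess (-0.083 and -0.088). In Int nuclei the call of Rpl35 was lost without any 1 library other than WT replicate 3 (-0.16 to -0.14), and that of Rpl36al without WT replicate 3 (-0.11), KO replicate 1 (-0.16) or KO replicate 2 (-0.14). In Late nuclei Rpl35 lost it without WT replicate 2 (-0.13), KO replicate 2 (-0.13) or KO replicate 3 (-0.13), and Rpl36al without WT replicate 2 (-0.12), KO replicate 1 (-0.12) or KO replicate 2 (-0.12). Rpl36a had a log2 difference of 0.027 (adjusted p = 0.7). Rpl37 was called lower in Int nuclei (-0.16, adjusted p = 0.0421), and lost the call without WT replicate 1 (-0.17), WT replicate 3 (-0.089), KO replicate 2 (-0.17) or KO replicate 3 (-0.14).

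Of 31 small subunit members 7 were called higher and 5 lower in Late nuclei of KO (38.7%, against 51.4% of all genes), with a median of 0.0057. The lower ones were Rps3, Rps13, Rps26, Rps27 and Rps27a. Rps3, at the entry of the messenger RNA channel, was at 117, 114 and 112 in WT and 100.1, 101 and 95.1 in KO, a change of -0.21 (SE 0.0435, limma adjusted p = 0.00120), and kept its call in 17 of 17 alternatives. Rps13 was at 99.1, 100.3 and 96.9 and 89.9, 78.8 and 84.7, a change of -0.23 (SE 0.0512, limma adjusted p = 0.00255), also kept in 17 of 17. Rps26, at the channel's exit, was at 198, 206 and 187 and 180.4, 169 and 169, a change of -0.19 (SE 0.0449, limma adjusted p = 0.00363), kept in 17 of 17. Every KO value of these 3 genes lay below every WT value, in Int nuclei too. There the log2 differences were -0.12, -0.13 and -0.12, none past the threshold (adjusted p = 0.0813, 0.0668 and 0.0664). In Late nuclei all 5 tested neighbours of Rps3 within 100 kb were called lower, Arrb1 by -0.39. So were 2 of 11 of Rps26, Suox by -0.55, and 0 of 1 of Rps13. Of the stalk, Rplp1 was at 136, 130.3 and 121 and 115, 109 and 112 in Late nuclei, a change of -0.20 (SE 0.0485, limma adjusted p = 0.00410), with the groups apart. Rplp2 changed by -0.12 (adjusted p = 0.0452), a call that the loss of any 1 library other than WT replicate 3 ended (-0.13 to -0.080), and Rplp0 had a log2 difference of 0.0067 (adjusted p = 0.904). Rpl5 was at 126, 123 and 118 and 111, 109.8 and 109, a change of -0.15 (SE 0.0425, limma adjusted p = 0.00875), and its 3 tested neighbours were all called lower. Only 4 members in all were called lower in Late nuclei under quantile normalization, and 4 under cyclic loess. Rps3, Rps13 and Rps26 were among them under both, so most of the other lower calls in Late nuclei were lost there. Rpsa, also known as the laminin receptor, had a log2 difference of -0.12 (adjusted p = 0.129).

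Whether the effect of KO differed between the classes was tested directly. It did for 3 of 83 members, 3.61%, against 7.49% of all genes (5.35% higher and 2.14% lower) and 7.26% of those of like score (1.89% and 5.37%). Rpl7 was at 98.98, 98.6 and 92.2 in WT and 112, 102 and 100.4 in KO in Int nuclei, where KO lay above WT, and at 121, 122 and 114 and 113, 108 and 110.1 in Late nuclei, where it lay below. Neither difference passed the threshold by itself (0.12, adjusted p = 0.111, and -0.11, adjusted p = 0.0546). The effect in Late less that in Int was -0.22 (SE 0.05002, limma adjusted p = 0.00887) on the log2 scale, and its neighbour Rdh10, 1449 bases away, differed by -0.24. Rpl34 differed by -0.20 (SE 0.0515, limma adjusted p = 0.0196) and Rpl27 by 0.18 (SE 0.0485, limma adjusted p = 0.0268), the last being 127, 130.1 and 141 and 151, 161 and 146 in Late nuclei and overlapping in Int. None of the 3 was called without a variance trend or with limma's default trend on the mean difference, nor under median centring. Rpl34 also lost the call without WT replicate 1 (-0.19), KO replicate 1 (-0.18) or KO replicate 2 (-0.21), and Rpl27 without WT replicate 1 (0.20), WT replicate 2 (0.17), KO replicate 2 (0.16) or KO replicate 3 (0.17). In nuclei with 5000 to 15000 fragments the differences were -0.19 for Rpl7, -0.12 for Rpl34 and 0.075 for Rpl27, none past the threshold. The number of members called ranged from 1 to 9 when single libraries were left out. It was 9 without WT replicate 3 and 1 without WT replicate 1 or KO replicate 2. Of all genes 15.02% were called without WT replicate 3, 2.32% without WT replicate 1 and 2.13% without KO replicate 2.

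The other called members are given by their log2 fold change. In all nuclei Rps27a (-0.15) was lower in KO and kept its call without each library in turn, but not under quantile normalization (-0.092) or cyclic loess (-0.082). Lower too were Rps23 (-0.13), Rps27l (-0.11) and Rpl4 (-0.11), and higher were Rpl30 (0.17), Rps15 (0.15) and Rpl10a (0.12). Each of these 6 calls ended when single libraries were left out. Those of Rps23, Rps27l and Rpl4 also ended under quantile normalization (-0.058, -0.051 and -0.048) and cyclic loess (-0.053, -0.043 and -0.041), and those of Rpl30 (0.022), Rps15 (0.0087) and Rpl10a (-0.028) under median centring. For Rps23, which lies at the decoding centre, the libraries were WT replicate 2 (-0.12), KO replicate 1 (-0.11) or KO replicate 3 (-0.12). For Rps27l they were WT replicate 1 (-0.11), WT replicate 2 (-0.10), KO replicate 1 (-0.12) or KO replicate 3 (-0.080), and for Rpl4 any other than KO replicate 2 (-0.12 to -0.076). For Rpl30 they were WT replicate 3 (0.087), KO replicate 1 (0.15) or KO replicate 3 (0.16), and for Rpl10a WT replicate 2 (0.093) or any KO replicate (0.11 to 0.13). For Rps15 they were WT replicate 1 (0.13), WT replicate 3 (0.14), KO replicate 1 (0.094) or KO replicate 2 (0.16). In Int nuclei Rps9 (0.19), and in Late nuclei Rps15 (0.22) and Rpl27 (0.20), were higher and kept the call without each library in turn, while median centring gave 0.013, 0.16 and 0.13 and left only that of Rps15 called. In Int nuclei the further calls were those of Rpl15 (0.17), Rpl23 (0.17), Rpl37a (0.24) and Rpl10a (0.16), higher in KO, and Rps23 (-0.14), lower. Median centring turned Rpl10a to -0.012, Rpl15 to -0.0056 and Rpl23 to -0.0064 and left Rpl37a at 0.059, not called. Rps23 was -0.094 under quantile normalization and -0.085 under cyclic loess, not called in either, and in C5 nuclei only Rpl15 was -0.28 and Rps9 -0.029. Rpl15 and Rpl23 lost theirs without WT replicate 3 (0.080 and 0.14), KO replicate 1 (0.15 and 0.17) or KO replicate 2 (0.18 and 0.16). Rpl37a lost it without WT replicate 1 (0.17) or 3 (0.21), Rpl10a without WT replicate 2 (0.12) or KO replicate 3 (0.13), and Rps23 without WT replicate 1 (-0.15) or any KO replicate (-0.15 to -0.13). In Late nuclei Rpl32l (0.23), Rpl30 (0.14) and Rps18 (0.13) were higher and Rps27a (-0.16) and Rpl4 (-0.14) lower. Under median centring Rpl32l (0.17), Rpl30 (0.078) and Rps18 (0.066) were not called, and under quantile normalization and cyclic loess neither Rps27a (-0.11 and -0.10) nor Rpl4 (-0.078 and -0.076) was. Rpl32l scored 11.6 in Late nuclei, where genes around 10.7 and 12.9 had medians of 0.29 and 0.27. It turned to -0.073 under quantile normalization and -0.034 under cyclic loess. It lost the call without each library other than WT replicate 2 (0.20 to 0.25), and Rpl30 without WT replicate 2 (0.14) or 3 (0.11) or KO replicate 2 (0.13) or 3 (0.11). Rps18 lost it without WT replicate 1 (0.10) or 2 (0.14) or KO replicate 1 (0.080), Rps27a without WT replicate 2 (-0.11) or KO replicate 1 (-0.14), and Rpl4 without WT replicate 2 (-0.12) or KO replicate 3 (-0.088). All tested members lay between -0.19 (Rps13) and 0.42 (Rpl22) in all nuclei, between -0.16 (Rpl36al) and 0.40 (Rpl22) in Int and between -0.23 (Rps13) and 0.45 (Rpl22) in Late nuclei.

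A score that takes in fragments around a gene may draw on the same fragments as its neighbours, which was not measured here. Of the 21 members called in all nuclei 17 had a neighbour within 100 kb called in the same direction, and for 16 such a neighbour had the larger change. Of all 7661 called genes 65.4% and 42.9% did, and of the 62 members not called 34 had a neighbour called in the direction of their own value. The counts were 11 and 8 of 18 in Int (62.5% and 40.2% of all called genes) and 23 and 20 of 25 in Late nuclei (65.2% and 43.1%). Rps13, Rps23 and Rps9 were among the called members with no neighbour called in their direction. When KO was compared with WT in C5 nuclei alone, 0 of 84 members were called by limma (12 at an unadjusted p under 0.05), where 0.879% of all genes were called, and these libraries held 143 to 598 nuclei of that cluster.

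Several members stood low or outside the tests. Rps25, a small subunit protein used by some viral messages, was at 2.61, 2.58 and 2.29 in WT and 4.04, 3.94 and 3.52 in KO. The 8 genes listed before it on its chromosome were at exactly 0 in every library, as were 301 genes in all, and no member was at 0. Nothing is read from the score of Rps25. Rpl39l, a testis paralogue, was at 2.25, 3.73 and 2.97 and 4.22, 4.95 and 4.01, against 79.7, 80.4 and 84.9 and 76.9, 83.7 and 80.9 for Rpl39. Of the other paralogue pairs, Rps27 changed by -0.17 in Late nuclei of KO (adjusted p = 0.0248), a call lost without WT replicate 1 (-0.15), WT replicate 2 (-0.15), KO replicate 2 (-0.12) or KO replicate 3 (-0.15). Rps27l had a log2 difference of -0.092 there (adjusted p = 0.1004), and Rpl3 and Rpl3l of 0.031 and 0.065 in all nuclei (adjusted p = 0.550 and 0.242). Rpl7l1 stood at 0.038 (adjusted p = 0.505) and Rps4x at 0.20 (adjusted p = 0.172). The low-scoring copy Rps4l was at 6.96, 6.65 and 8.56 in WT and 8.47, 11.1 and 8.76 in KO in Late nuclei, 0.31 (SE 0.123, limma adjusted p = 0.0457) on the log2 scale, a call that ended on leaving out WT replicate 1 (0.28), KO replicate 2 (0.20) or WT replicate 2 (0.25), and turned to -0.017 and -0.011 by quantile normalization and cyclic loess. Genes around a score of 8.87 had a median log2 difference of 0.32 in Late nuclei.

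The 21 members mutated in Diamond-Blackfan anaemia or lost with 5q were counted apart. In KO 4 were higher and 2 lower over all nuclei (28.6%, against 43.3% of all genes and 44% of those of like score), with a median of 0.033, and between Late and Int nuclei of WT 15 were higher and 1, Rps20, was lower (76.2%, against 76% of all genes), with a median of 0.18. Other members of this list were Rps10 (0.12, adjusted p = 0.0271), Rps29 (-0.027, adjusted p = 0.636), Rpl26 (0.035, adjusted p = 0.501) and Rpl35a (-0.067, adjusted p = 0.244) in all nuclei of KO against WT. The call of Rps10 was lost under median centring, where it was -0.029, and without WT replicate 2 (0.11), KO replicate 1 (0.11), KO replicate 2 (0.11) or KO replicate 3 (0.13). Members with the pyrimidine run at their start had 4 higher and 4 lower calls of 29 in KO, and those without it 5 and 4 of 33, where 43.3% of all genes were called. Between Late and Int nuclei of WT the counts were 24 and 1 of 29, and 22 and 3 of 33, where 27.4% of all genes were higher and 48.6% lower.

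Some ribosomal proteins fall outside the name rule. Fau, Rps3a1 and Rack1 did not pass the threshold between KO and WT (limma), with log2 differences between -0.031 and 0.11 over the 3 comparisons, and each was higher in Late than in Int nuclei of WT, from 0.13 for Rack1 to 0.30 for Rps3a1. In KO Rps3a1 (0.26) and Fau (0.35) were called higher in Late nuclei, and Rack1 was not (0.11, limma adjusted p = 0.0693). Of all genes 27.4% were higher in Late nuclei of WT and 25.9% of KO. Of 76 ribosome assembly factors 15 were higher and 11 lower in KO over all nuclei (34.2%, against 43.3% of all genes), from -0.26 for Dimt1, which methylates the small subunit RNA, to 0.58 for the helicase Ddx18. Their median was -0.021, and 46 were higher and 12 lower in Late than in Int nuclei of WT (median 0.18, 76.3% called against 76% of all genes). Of 19 genes of RNA polymerase I and 5S transcription 5 were higher in KO and 2 lower (36.8%, against 43.3% of all genes), from -0.28 for Polr1b to 0.49 for Znrd1. Of 28 translation factors, other TOP messages and regulators of translation 4 were higher and 3 lower (25%, against the same 43.3%), from -0.27 for Snhg12 to 0.50 for the translation repressor Eif4ebp1.

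Of 12 genes of ribosome rescue and recycling 5 were called in KO over all nuclei, and these were lower (41.7%, against 14.2% of all genes and 34.5% of genes of like score to the members called lower), with a median of -0.11 and the lowest value at Usp10 (-0.34), and in Late nuclei 7 were lower (58.3%, against 18.5% of all genes and 34.1% of those of like score, median -0.12). In Int nuclei 2 were lower (16.7%, against 7.1% of all genes and 19.4% of those of like score, median -0.063). Of 7 genes of ribosomal stress and p53 the cell cycle inhibitor Cdkn1a alone was called (14.3%, against 43.3% of all genes in all nuclei). It was at 15.8, 20.3 and 22.1 in WT and 67.7, 59.3 and 68.8 in KO over all nuclei, a change of 1.71 (SE 0.0949, limma adjusted p = 7.36e-10). The 77 mitochondrial ribosomal proteins tested, which form a ribosome of their own, had 17 higher and 7 lower calls in KO (31.2%, against 43.3% of all genes) and 31 higher and 22 lower calls in Late against Int nuclei of WT (68.8%, against 76%), with a median of 0.047 in the latter against 0.25 for the cytosolic members. These lists are given by their counts, and no list was tested against another.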

How the data were processed

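The data were single-nucleus ATAC gene scores of 34073 nuclei in 6 libraries, with the authors' classes and clusters. Cell Ranger and mm10 are named in the submitters' processing notes. The deposited gene scores are a signal scaled by the authors to about 10000 per nucleus, as the values show. All nuclei of the table were used: no doublet caller was run, the deposited doublet scores were not used to filter, and whether the authors removed doublets is not given in the sources used here. How fragments were weighted by distance is not given in the sources used here. Fragment counts per nucleus come from the deposited metadata, whose second block was used.

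For each library and class the mean score over its nuclei was taken, rescaled to 1000000, and tested as log2(value + 1) with limma 3.58.1 (variance trend) in R 4.3.3, after Python 3.11.15 with pandas 2.3.3. Genes with a mean of at least 5 were kept and p-values adjusted by Benjamini-Hochberg over all genes, with a threshold of 0.05. A fold change on this scale understates that of low genes. Late and Int nuclei were compared within libraries. A gene of like score lay between the quartiles of the members. On simulated data for KO against WT in all nuclei, 47.8% of changes of 0.25, 91.0% of 0.5 and 100% of 1 (log2) were found. Few genes, drawn at any score level, were changed there, so these shares do not describe the members.

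Named genes were the 3 highest and lowest members of each comparison, Diamond-Blackfan anaemia and stalk genes, and paralogue pairs. Rps21, Rpl27 and other members outside this rule were named after their values were seen. Members and lists were chosen with earlier results of these data known. Alternatives changed the pseudocount, filter, scaling, variance trend, nuclei and libraries. Depth limits a library mean through 4617 to 6990 nuclei. Some genes are not reported here by name. Other samples were not analysed here.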

Additional observations from a re-analysis of the deposited data

Results flagged for a closer look

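For 3 of 83 members the effect of KO differed between Late and Int nuclei by a test of the difference itself (limma, Benjamini-Hochberg over all genes). This was 3.61% of them, against 7.49% of all genes and 7.26% of those of like score. None of the 3 was called under median centring, without a variance trend or with the trend on the mean difference. The effect in Late nuclei less that in Int nuclei was -0.22 for Rpl7, -0.20 for Rpl34 and 0.18 for Rpl27 on the log2 scale. By itself the KO effect passed the threshold for Rpl34 in Int and for Rpl27 in Late nuclei, and for Rpl7 in neither.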

How the results depend on the processing

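The members called between KO and WT in all nuclei numbered 21, and 8 without a variance trend and 4 with nuclei weighted by fragments, while the share of all genes called went from 43.3% to 37.7% and 12.8%. In Int nuclei the 18 became 11 under median centring, 1 without a variance trend and 0 in C5 nuclei only (limma, 12 at an unadjusted p under 0.05), and the 19.8% of all genes 28.5%, 9.87% and 0.879%. In Late nuclei the 25 became 16 without a variance trend (all genes 51.4% and 46.2%). The 3 members with a different KO effect became 0 under median centring, without a variance trend and, chosen after seeing the data, with the trend on the mean difference (limma, 6, 6 and 8 at an unadjusted p under 0.05), and 6 with nuclei weighted by fragments (all genes 7.49%, then 7.93%, 2.42%, 0.158% and 8.42%). Leaving out single libraries gave 15 to 22 calls in all nuclei and 11 to 18 in Int (11 without KO replicate 1). In Late nuclei it gave 16 to 25 (16 without WT replicate 2). For Late against Int it gave 66 to 72 in WT and 61 to 71 in KO. For the difference it gave 1 to 9 (1 without WT replicate 1 or KO replicate 2, 9 without WT replicate 3). For all genes the shares called were 30.7% to 47.6% in all, 13.2% to 24.5% in Int and 42.2% to 49.1% in Late nuclei. They were 68.4% to 77.4% in WT and 64.7% to 77.3% in KO for Late against Int. For the difference they were 2.13% (without KO replicate 2) to 15.02% (without WT replicate 3). The cause of these changes in the calls was not tested.

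A replicate block gave 25, 22 and 21 calls in all, Int and Late nuclei and 5 for the difference. Of all genes 42.2%, 23.3%, 50.2% and 10.4% were then called. The deviations of each library from the mean of its genotype were correlated between same-numbered WT and KO libraries. These correlations, which are not those of the scores themselves, were -0.117, -0.273 and 0.206 in all nuclei. They were 0.129, -0.0842 and 0.193 in Int and 0.0871, 0.0453 and 0.0508 in Late nuclei. The labels do not say that equal replicate numbers mark a shared animal, litter or day, so the numbers were not taken as pairs. The deviations of 3 libraries from their own mean sum to 0, so these correlations cannot show whether the libraries were paired. When Late and Int nuclei were not paired within libraries, 68 calls in WT and 65 in KO were made, with 71.2% and 68.4% of all genes called.

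Some values turned sign. For KO against WT median centring gave -0.0034 for Rpl10, -0.022 for Rpl11, -0.029 for Rps10, -0.0076 for Rps24 and -0.028 for Rpl10a in all nuclei, and -0.016 for Rps7, -0.012 for Rpl10a, -0.0056 for Rpl15 and -0.0064 for Rpl23 in Int. C5 alone gave -0.11 for Rpl22, 0.086 for Rpl36al, -0.28 for Rpl15 and -0.029 for Rps9, and in Late nuclei Rps4l went to -0.017 (quantile) and -0.011 (loess) and Rpl32l to -0.073 and -0.034. For Late against Int in WT median centring gave 0.19 for Rpl35a, 0.14 for Rpl36a, 0.18 for Rpl39 and 0.17 for Rps26. Quantile normalization gave -0.020 for Rpl3l and -0.086 for Rps19, and loess -0.0095 for Rpl3l, -0.096 for Rps19 and -0.0056 for Rps29. The called members Rpl18, Rpl41 and Rps27a also turned under both, to between -0.067 and -0.0045. In nuclei with 5000 to 15000 fragments Rpl35a was 0.12. In KO median centring gave 0.16 for Rpl32, 0.056 for Rpl36a, 0.089 for Rps26, 0.16 for Rps3, 0.17 for Rpsa, 0.026 for Rpl29 and 0.055 for Rps16. Rps19 was -0.035 (quantile) and -0.042 (loess), Rpl41 -0.011 and -0.057, and in the fragment window Rpl32 was 0.14 and Rpl36a 0.037. On simulated data with 3 against 3 libraries, changes of 0.25 and 0.5 were found in 47.8% and 91.04% of cases in all nuclei, 32.8% and 82.1% in Int, 52.2% and 98.5% in Late nuclei and 40.3% and 68.7% for the difference of KO effects, so a change near 0.25 can be missed. Few genes were changed in these simulations, and they were drawn at any score level. The shares found therefore do not describe the members, most of which have high scores.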
